A study of Mus musculus with 12 samples.

Results

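Type IV collagen and laminin are the 2 network-forming proteins of basement membranes. The 10 chain genes described here are Col4a1, Col4a2, Col4a3, Col4a4, Col4a5, Col4a6, Lama1, Lama5, Lamb1 and Lamb2, taken by gene symbol from 32692 gene rows of whole-kidney RNA-seq tables. All 10 had a row and all 10 had enough counts to be tested. The groups are untreated wild-type (WT) mouse kidneys at day 8 (n = 5 libraries) and at day 0 (n = 6 libraries), and they share genotype and treatment. The labels list 6 samples per age, and 1 day 8 sample could not be matched to a column and was not analysed here. The strain, sex and litter are not given, nor whether each library came from its own animal, and the p-values reflect the spread among libraries, which may be technical.

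Each collagen IV molecule is a trimer of chains. Trimers of Col4a1 and Col4a2 chains are found in nearly all basement membranes and make up the first glomerular basement membrane. As the glomerulus matures, podocytes, the epithelial cells on the outer face of the glomerular capillaries, add trimers of the Col4a3, Col4a4 and Col4a5 chains, which in humans are the chains affected in Alport syndrome. Col4a5 also assembles with Col4a6, for example in Bowman's capsule. Laminins are trimers of an alpha, a beta and a gamma chain. In the glomerulus, laminin with the Lama1 and Lamb1 chains is known to give way to laminin with the Lama5 and Lamb2 chains, and in humans loss of LAMB2 causes the nephrotic disease called Pierson syndrome. The comparison of ages addresses how the RNA of early and late chains stood in the whole kidney at each age.

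The 6 collagen IV genes lie in head-to-head pairs, with each pair transcribed outward from a shared start region. In GENCODE M21 on GRCm38, Col4a3 starts at position 82586921 on the plus strand of chromosome 1 and Col4a4 at position 82586849 on the minus strand, with 71 bases between the annotated starts. Col4a2 (plus strand, start 11312805) and Col4a1 (minus strand, start 11312826) on chromosome 8 overlap at their 5′ ends by 22 bases. Col4a5 (plus strand, start 141475385) and Col4a6 (minus strand, start 141474076) on chromosome X lie 1308 bases apart. Both short start regions are printed because their paired genes share them, and the pair results below refer back to them. Sequence is from RefSeq on GRCm38.p6. Capitals mark the 71 bases between the annotated starts in the first sequence, read on the Col4a4 strand at chr1:82586830-82586940. In the second sequence, read on the Col4a2 strand at chr8:11312801-11312830, capitals mark the 22 bases that both annotated transcripts cover.
Col4a4 and Col4a3 start region: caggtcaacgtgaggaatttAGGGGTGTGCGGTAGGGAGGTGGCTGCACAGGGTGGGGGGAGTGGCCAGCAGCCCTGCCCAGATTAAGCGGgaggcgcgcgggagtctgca
Col4a2 and Col4a1 start region: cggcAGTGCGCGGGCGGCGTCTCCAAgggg

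RefSeq start windows of 300 bases, 250 before and 50 after the start, were at hand for 8 of the 10 genes. Col4a3 and Lama1 had no entry. Their content of G and C ranged widely, with 74.0% in the Col4a1 window, 73.7% in the Col4a2 window, 63.3% in the Col4a4 window and 44.0% in the Lamb2 window, against a median of 52.7% over all windows. The letters GGGCGG, read on both strands, were found in 6 of the 8 windows and in 35.7% of 32851 windows of the same length. Col4a4 and Lamb2 had no match. CCAAT was found in 4 of the 8 (Col4a1, Col4a2, Col4a5 and Lamb1), against 37.4% of all windows, and TATAAA in 0 of the 8, against 13.6%. A match is a description of the letters and not a measured binding site.

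Day 8 kidneys held more RNA of every collagen IV chain and less of Lama1 than day 0 kidneys, whereas Lama5, Lamb1 and Lamb2 did not pass the test. Levels are given as CPM, read counts scaled to a common library total, with TMM normalisation, which sets the typical gene equal between libraries. The test was edgeR's quasi-likelihood test over all 18763 genes with enough counts, with Benjamini-Hochberg adjustment and a threshold of 0.05. Of the 10 chains, 6 were called higher, 1 was called lower and 3 were not called. Between these ages a large part of the genome moved. Across all genes tested, 27.5% were called higher and 30.1% lower, together 57.6%, so that 7 called chains of 10 stand near the background. For 7 of the 10 chains every day 8 CPM value lay on one side of every day 0 value, as it did for 40.5% of all genes tested. The median log2 fold change of the 10 chains was 0.37, beside -0.01 over all genes tested. These are bulk samples, in which fewer cells of a type and less RNA per cell cannot be told apart.

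**Figure D1:**
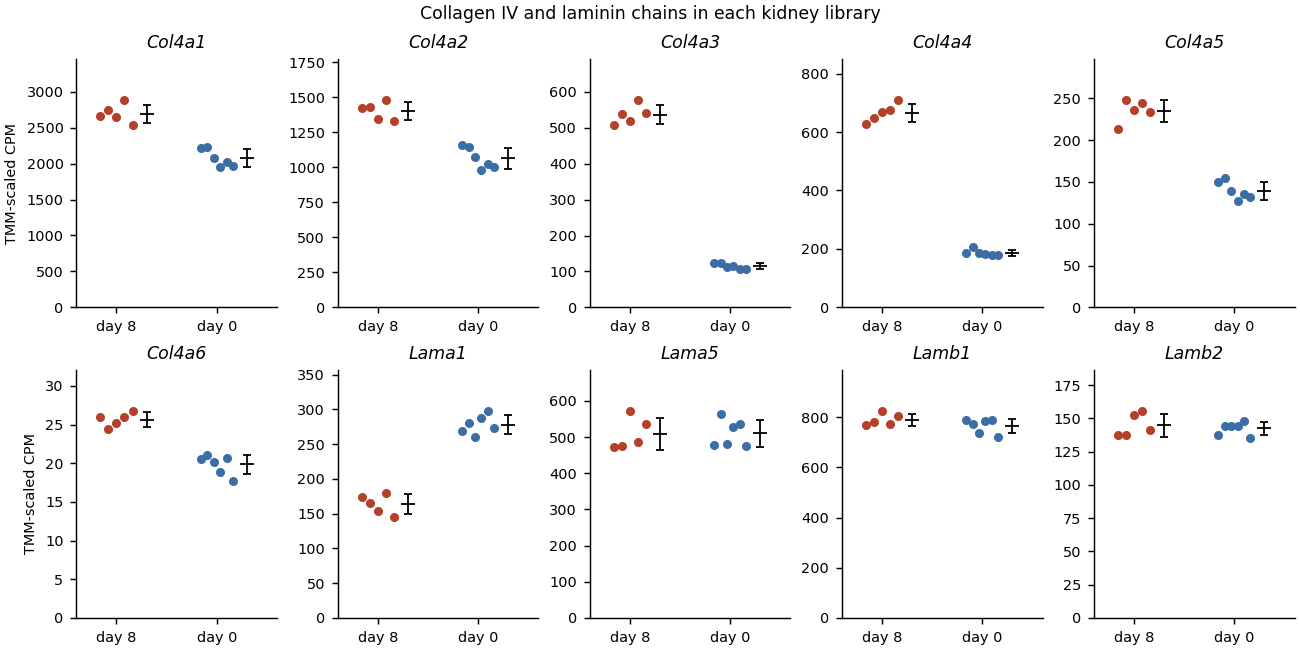
TMM-scaled CPM (y axis, from 0) of each chain in the 5 day 8 libraries (red, left) and the 6 day 0 libraries (blue, right). Black marks give the mean and SD. The ages separate for all 6 collagen IV chains and for Lama1, and they overlap for Lama5, Lamb1 and Lamb2.

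The 2 largest changes of the 10 were those of Col4a3 and Col4a4, whose products belong to the late glomerular network. Col4a3 had 509, 538, 518, 576 and 542 CPM in day 8 libraries 1 to 5, against a lowest value of 106, a median of 114 and a highest value of 124 CPM in day 0 libraries. All 5 day 8 libraries stood far above all 6 day 0 libraries. Col4a3 rose 4.69-fold, to 537 ± 26.1 CPM at day 8 (SD, n = 5) against 114 ± 7.78 CPM at day 0 (SD, n = 6), with a log2 fold change of 2.23, an SE of 0.05 and an adjusted p of 3.38e-14 (edgeR). Its log2 fold change was higher than that of 99.4% of genes tested. The gene spans positions 82586921 to 82722059 of chromosome 1 with 52 exons in its longest coding transcript. It shares 563 exonic bases with C430014B12Rik on the opposite strand, whose mean was 0.62 CPM in day 8 libraries and 0.29 CPM in day 0 libraries. No source used here says whether counting used the strand.

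Col4a4, its neighbour across the 71 bases shown above, had 626, 647, 668, 677 and 708 CPM in day 8 libraries 1 to 5. Day 0 libraries had a lowest value of 178, a median of 185 and a highest value of 208 CPM. The ages did not overlap, and day 0 library 2, at 208 CPM, stood above the other day 0 libraries. Col4a4 rose 3.56-fold, to 665 ± 31.1 CPM at day 8 against 187 ± 11.1 CPM at day 0, a log2 fold change of 1.83 with an SE of 0.05 (edgeR, adjusted p = 1.27e-13). Of all genes tested, 98.9% had a lower log2 fold change. For comparison, 906 genes, or 4.83% of those tested, were called with a rise of at least 2-fold.

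Col4a5, the chain shared between the late glomerular trimer and the trimer with Col4a6, changed less. It had 214, 247, 236, 244 and 234 CPM in day 8 libraries 1 to 5, against 127 to 155 CPM with a median of 137 in day 0 libraries, without overlap. Col4a5 rose 1.68-fold to 235 ± 13.1 CPM at day 8, against 140 ± 10.7 CPM at day 0 (log2 fold change 0.75, SE 0.05, edgeR adjusted p = 1.05e-08). Col4a6, its head-to-head neighbour on chromosome X, was the chain with the fewest counts. It had 26.0, 24.4, 25.2, 26.0 and 26.7 CPM in day 8 libraries 1 to 5, against 17.7 to 21.1 CPM with a median of 20.3 in day 0 libraries. The ages did not overlap, and Col4a6 rose 1.29-fold (log2 fold change 0.37, SE 0.06, edgeR adjusted p = 3.57e-05).

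Col4a1 and Col4a2, the chains of the general trimer, were the most abundant and rose by similar amounts. Col4a1 had 2659, 2745, 2645, 2877 and 2534 CPM in day 8 libraries 1 to 5, against 1952 to 2232 CPM with a median of 2049 in day 0 libraries. All day 8 libraries stood above all day 0 libraries, and within day 0 the highest 3 were libraries 1 to 3. Its rise was 1.30-fold, to 2692 ± 128 CPM at day 8 against 2077 ± 123 CPM at day 0 (log2 fold change 0.37, SE 0.05, edgeR adjusted p = 2.14e-05). Col4a2, which overlaps Col4a1 in the 22 bases shown above, had 1421, 1432, 1344, 1477 and 1331 CPM in day 8 libraries 1 to 5 and 981 to 1162 CPM with a median of 1047 in day 0 libraries. The ages did not overlap here either, and Col4a2 rose 1.32-fold (log2 fold change 0.40, SE 0.05, edgeR adjusted p = 1.33e-05). Without day 0 libraries 1 to 3 the log2 fold change was 0.46 for Col4a1 and 0.49 for Col4a2, with both still called (adjusted p = 6.45e-05 and 2.19e-05).

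**Figure D2:**
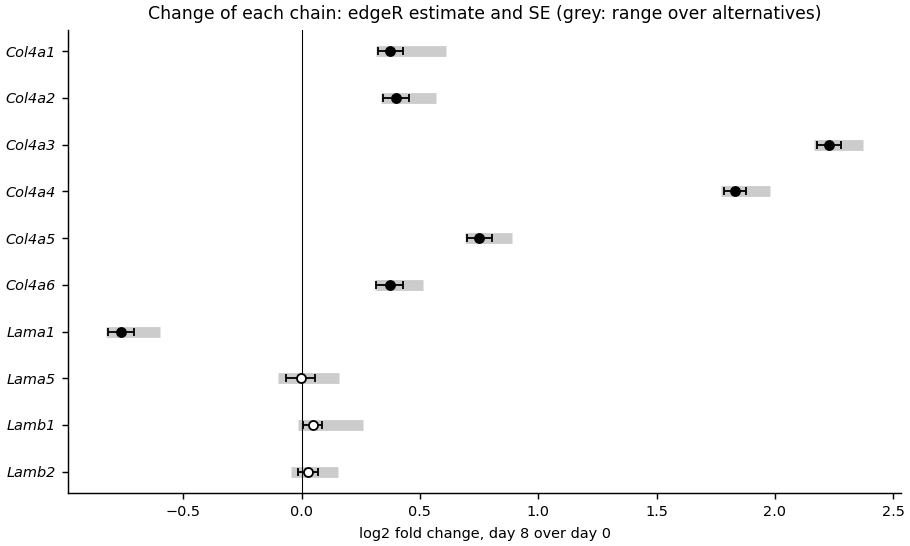
Log2 fold change of each chain, day 8 over day 0 (x axis), as estimated by edgeR, with its SE as bars. Filled points passed an adjusted p of 0.05, and grey bands span the values under 23 alternative settings. Col4a3 at 2.23 and Col4a4 at 1.83 stand apart from the other collagen IV chains at 0.37 to 0.75, and Lama1 stands at -0.76.

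Chain ratios within a library do not depend on how libraries are scaled to each other. The 9 ratios were computed from the deposited TPM values, which are per transcript length, and tested with a two-sided exact permutation test of the log2 ratio over the 11 libraries, adjusted over the 9. The smallest p this design can give is 0.00433. Col4a3/Col4a1 was 0.0726, 0.0772, 0.0726, 0.0731 and 0.0793 in day 8 libraries 1 to 5, against 0.0199 to 0.0253 in day 0 libraries. The mean ratio was 0.0750 ± 0.00310 at day 8 and 0.0220 ± 0.00209 at day 0, a log2 difference of 1.77 with an SE of 0.06 (exact p = 0.00433, adjusted p = 0.00557, higher in all 5 day 8 libraries than in any day 0 library). Col4a3 RNA thus stood higher relative to Col4a1 RNA in each library of the older age.

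Col4a4/Col4a2 gave the same picture for the partner chains. It was 0.263, 0.273, 0.300, 0.280 and 0.324 in day 8 libraries 1 to 5, against 0.0998 to 0.114 in day 0 libraries, a log2 difference of 1.42 with an SE of 0.06. Col4a5/Col4a1 averaged 0.0488 ± 0.00283 at day 8 and 0.0401 ± 0.00361 at day 0, with a smaller log2 difference of 0.28 and no overlap. Col4a5/Col4a6 averaged 10.9 ± 0.954 at day 8 and 8.42 ± 0.405 at day 0 (log2 difference 0.37). For these 3 ratios the exact p was 0.00433 and the adjusted p 0.00557.

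Within the head-to-head pairs the ratios behaved differently. Col4a2/Col4a1 averaged 0.264 ± 0.0136 at day 8 and 0.272 ± 0.0245 at day 0, a log2 difference of -0.04 with an SE of 0.06 that did not pass (exact p = 0.515, adjusted p = 0.515). Col4a4/Col4a3 averaged 1.01 ± 0.0391 at day 8 and 1.33 ± 0.0458 at day 0, without overlap (log2 difference -0.40, SE 0.03, exact p = 0.00433, adjusted p = 0.00557). Col4a3 RNA therefore increased by more than Col4a4 RNA, and the 2 stood close to equal at day 8 on this scale. Col4a5/Col4a6, the ratio of the chromosome X pair given above, was higher at day 8 (log2 difference 0.37). Col4a6 and Col4a2 lie on different chromosomes and are not a pair. Col4a6/Col4a2 averaged 0.0171 ± 0.00135 at day 8 and 0.0176 ± 0.000802 at day 0 and did not pass (log2 difference -0.04, SE 0.06, exact p = 0.463, adjusted p = 0.515).

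Counts and TPM did not place every chain at the same relative level. CPM divided by TPM and by the annotated kilobases of the longest coding transcript was 0.35 at day 8 and 0.43 at day 0 for Col4a1, and 0.45 at day 8 and 0.52 at day 0 for Lamb2, whereas it lay between 0.63 and 0.87 for the other 8 chains. No source used here says which transcripts the TPM values rest on. The ratios were therefore also computed from CPM per annotated kilobase. On that scale Col4a3/Col4a1 averaged 0.154 ± 0.00669 at day 8 and 0.0426 ± 0.00180 at day 0 (log2 difference 1.86), and Col4a4/Col4a2 averaged 0.304 ± 0.0241 at day 8 and 0.112 ± 0.00573 at day 0 (log2 difference 1.43). For Col4a5/Col4a1 the log2 difference was 0.38, and for Col4a4/Col4a3 it was -0.40 (exact p = 0.00433 and adjusted p = 0.00649 for each of the 4). For Col4a3/Col4a1 the day 0 libraries split by TPM but not by counts. By TPM this ratio was 0.0199 to 0.0205 in day 0 libraries 1 to 3 and 0.0228 to 0.0253 in libraries 4 to 6. By CPM per kilobase it was 0.0420 to 0.0429 in libraries 1 to 3 and 0.0406 to 0.0459 in libraries 4 to 6. Col4a2/Col4a1 averaged 0.534 ± 0.0106 at day 8 and 0.525 ± 0.00747 at day 0 on this scale, nearer to equal amounts than by TPM, and again did not pass (exact p = 0.147, adjusted p = 0.189).

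**Figure D3:**
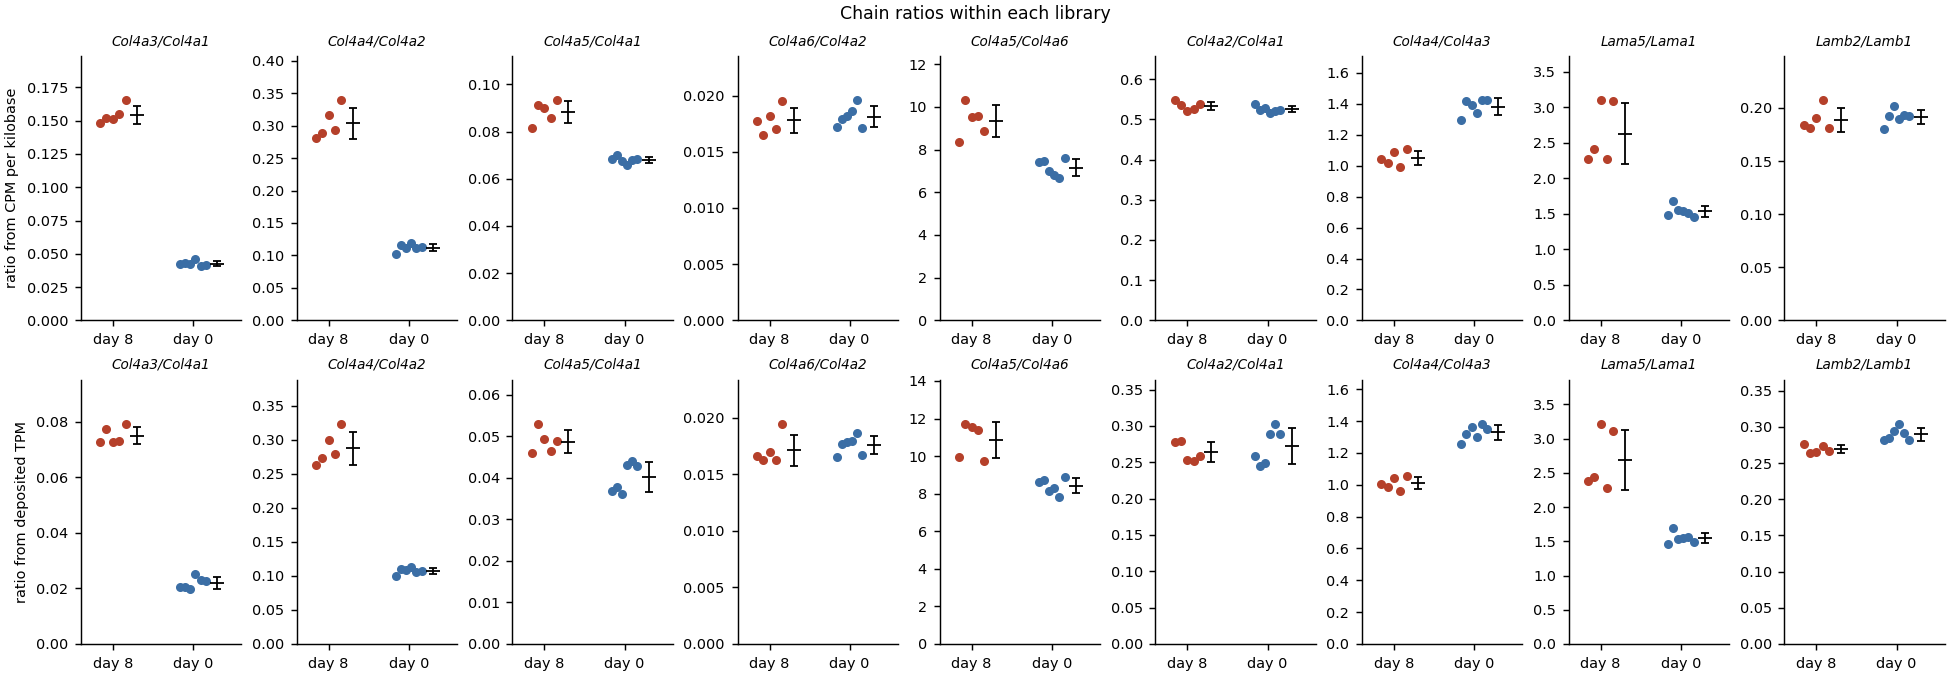
The 9 chain ratios in each library, from CPM per annotated kilobase (upper row) and from deposited TPM (lower row), with day 8 in red on the left, day 0 in blue on the right, and mean and SD in black. Every axis starts at 0. Col4a3/Col4a1 and Col4a4/Col4a2 separate widest, whereas the direction of Col4a2/Col4a1 and the separation of Lamb2/Lamb1 depend on the row.

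As shares of all collagen IV chain RNA, the chains Col4a3, Col4a4 and Col4a5 together made up 20.8 ± 0.904% at day 8 (SD, n = 5) and 9.95 ± 0.205% at day 0 (SD, n = 6) by CPM per kilobase. By TPM the same shares were 13.6 ± 0.554% at day 8 and 6.67 ± 0.467% at day 0. Col4a1 and Col4a2 together held 78.7 ± 0.920% at day 8 and 89.5 ± 0.204% at day 0 by CPM per kilobase, and 86.1 ± 0.569% at day 8 and 93.0 ± 0.494% at day 0 by TPM. Shares sum to a whole, so the lower share of the general chains stands beside RNA levels of Col4a1 and Col4a2 that were higher at day 8. Col4a6 held 0.49% at day 8 and 0.56% at day 0 by CPM per kilobase.

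**Figure D4:**
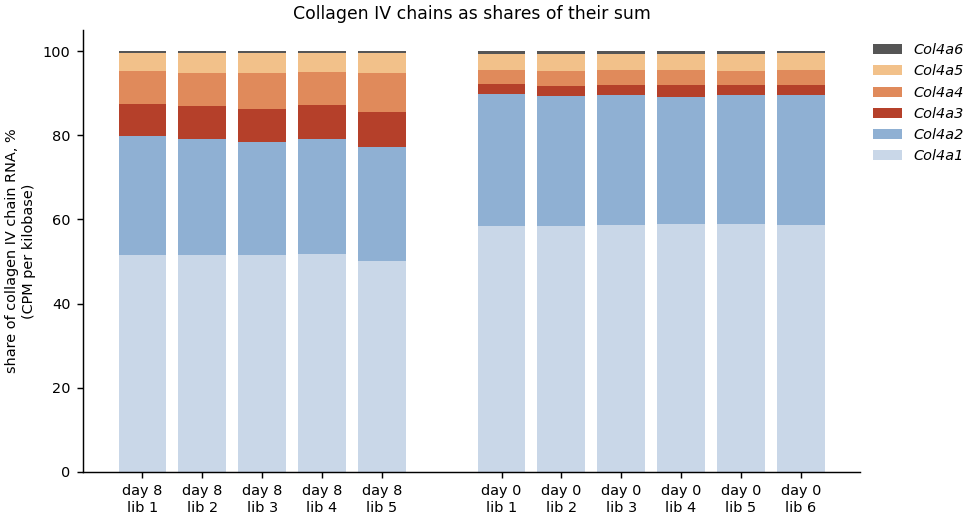
Collagen IV chains as percent of their sum in each library, from CPM per annotated kilobase, with day 8 libraries on the left and day 0 libraries on the right. The 3 warm-coloured segments (Col4a3, Col4a4 and Col4a5) average 20.8% of the bar at day 8 and 9.95% at day 0.

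The order of the chains by CPM per kilobase differed between the ages. At day 8 it ran from Col4a1 (407) and Col4a2 (217) through Lamb1 (137), Col4a4 (65.8), Col4a3 (62.7), Lama5 (44.7), Col4a5 (35.9), Lamb2 (25.8) and Lama1 (17.2) to Col4a6 (3.86). The ranges of Col4a4 and Col4a3 overlapped at day 8, and those of all other neighbours did not. At day 0 the order was Col4a1 (314), Col4a2 (165), Lamb1 (132), Lama5 (44.8), Lama1 (29.2), Lamb2 (25.3), Col4a5 (21.4), Col4a4 (18.5), Col4a3 (13.4) and Col4a6 (2.98), and there the ranges of Col4a5 and Col4a4 overlapped. Col4a3 and Col4a4 thus stood below all 4 laminin chains at day 0 and below Lamb1 alone among them at day 8.

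Among the laminin chains, Lama1 was the chain that changed. It encodes the alpha chain of the early laminin and is also a component of tubular basement membranes. Lama1 had 174, 165, 155, 179 and 146 CPM in day 8 libraries 1 to 5, against a lowest value of 260.1, a median of 276 and a highest value of 298 CPM in day 0 libraries. Every day 8 library lay below every day 0 library. Lama1 fell 1.70-fold, to 164 ± 13.9 CPM at day 8 against 278 ± 13.4 CPM at day 0 (log2 fold change -0.76, SE 0.05, edgeR adjusted p = 9.23e-09). Of all genes tested, 9.37% had a lower log2 fold change.

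Lama5, the alpha chain of the mature laminin, had 473, 476, 572, 487 and 536 CPM in day 8 libraries 1 to 5, against 476 to 564 CPM with a median of 504 in day 0 libraries. The ages overlapped almost fully, and edgeR gave a log2 fold change of -0.00 (SE 0.06, adjusted p = 0.957). Lama5/Lama1 by TPM was 2.39, 2.44, 3.22, 2.27 and 3.11 in day 8 libraries 1 to 5, against 1.47 to 1.69 in day 0 libraries. The ratio averaged 2.69 ± 0.442 at day 8 and 1.55 ± 0.0790 at day 0 (log2 difference 0.78, SE 0.11, exact p = 0.00433, adjusted p = 0.00557), higher in all 5 day 8 libraries. By TPM the log2 fold change was -0.62 for Lama1 and 0.16 for Lama5, and by TMM-scaled CPM it was -0.76 and -0.00.

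The beta chains gave no such separation by counts. Lamb1, the early beta chain, had 768, 782, 824, 771 and 803 CPM in day 8 libraries 1 to 5, against 722 to 788 CPM with a median of 779 in day 0 libraries (log2 fold change 0.05, SE 0.04, edgeR adjusted p = 0.368). Lamb2, the late beta chain, had 137, 138, 153, 156 and 141 CPM in day 8 libraries 1 to 5, against 135 to 148 CPM with a median of 144 in day 0 libraries (log2 fold change 0.03, SE 0.04, edgeR adjusted p = 0.639). Both genes overlapped between the ages. The log2 fold changes of Lama5, Lamb1 and Lamb2 were small enough for their sign to turn with the scaling, and with library size only they were -0.07, -0.02 and -0.04.

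Whether the ratio of late to early beta chain differed depended on the unit. Lamb2/Lamb1 by TPM averaged 0.269 ± 0.00566 at day 8 and 0.290 ± 0.00874 at day 0, lower in all 5 day 8 libraries (log2 difference -0.11, SE 0.02, exact p = 0.00433, adjusted p = 0.00557). By CPM per kilobase it averaged 0.189 ± 0.0111 at day 8 and 0.192 ± 0.00698 at day 0, with overlap (log2 difference -0.02, SE 0.04, exact p = 0.602, adjusted p = 0.602). On neither scale was Lamb2 higher relative to Lamb1 at day 8. Lamb1 RNA per kilobase exceeded Lamb2 RNA at both ages, with 137 and 25.8 CPM per kilobase at day 8 and 132 and 25.3 at day 0.

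The other laminin chains moved in both directions: of 7 tested, 3 were called higher, 3 lower and 1, Lama3, was not called, with a median log2 fold change of 0.50 beside -0.01 over all genes. Over all genes tested 27.5% were called higher and 30.1% lower, and the counts of this and every list below stand beside those shares. Lamc1, the gamma chain that joins most kidney laminins, fell 1.34-fold, to 714 ± 37.2 CPM at day 8 against 958 ± 55.5 CPM at day 0 (edgeR, adjusted p = 3.81e-06). Lama2, an alpha chain best known from muscle, rose 1.57-fold, to 224 ± 16.4 CPM at day 8 against 142 ± 6.73 CPM at day 0, and Lamb3, a beta chain of epithelial anchoring laminin, rose 1.85-fold at a low level of 7.08 ± 1.36 CPM at day 8 against 3.83 ± 0.480 CPM at day 0. Lama4, a chain of vascular laminin, also fell (1.61-fold), and Lamc3 was the third that rose (1.5-fold). These last 2 genes and others given below only to complete a count lie outside the naming rule and were named after their values were seen.

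Genes for proteins that link or fill the basement membrane were more often called higher than lower: 8 of 12 were called higher, 1 lower and 3 not, with a median log2 fold change of 0.16. The shares over all genes tested were 27.5% higher and 30.1% lower. Tinag, tubulointerstitial nephritis antigen of tubular basement membranes, rose 4.0-fold, to 123 ± 8.74 CPM at day 8 against 30.7 ± 4.34 CPM at day 0 (edgeR, adjusted p = 2.77e-10). Col15a1, a basement membrane-associated collagen, rose 1.92-fold, to 505 ± 30.9 CPM at day 8 against 263 ± 20.8 CPM at day 0. Npnt, which encodes the integrin ligand nephronectin, rose 1.79-fold, to 1440.3 ± 38.9 CPM at day 8 against 804 ± 26.5 CPM at day 0. Agrn, the heparan sulfate proteoglycan agrin of the glomerular basement membrane, rose 1.09-fold with overlapping ages (adjusted p = 0.0276). Fras1 was the gene called lower (1.11-fold), and its mean TPM did not differ in that direction (log2 ratio 0.00).

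Enzymes and chaperones of collagen synthesis were called higher for 7 of 14 genes and lower for 3, with a median log2 fold change of 0.12. P3h2, a prolyl 3-hydroxylase that acts on collagen IV, rose 2.28-fold, to 230 ± 6.03 CPM at day 8 against 101 ± 6.90 CPM at day 0 (edgeR, adjusted p = 1.06e-11). P4ha3, an alpha subunit of prolyl 4-hydroxylase, fell 4.57-fold at a low level, with 1.16 ± 0.747 CPM at day 8 and 5.38 ± 2.09 CPM at day 0, and its ages overlapped. Colgalt1, a collagen galactosyltransferase, and Pxdn, the peroxidase that forms sulfilimine crosslinks in collagen IV, were the other 2 called lower (1.24-fold and 1.11-fold). P4hb, the beta subunit of prolyl 4-hydroxylase (log2 fold change 0.03, adjusted p = 0.724), and Serpinh1, the collagen chaperone HSP47 (-0.02, adjusted p = 0.783), were not called.

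Matrix receptors were called higher for 6 of 11 genes and lower for 2, with a median log2 fold change of 0.18. Itgb4, an integrin beta chain that binds laminin in epithelia, rose 1.71-fold, to 32.2 ± 3.27 CPM at day 8 against 18.9 ± 1.27 CPM at day 0 (edgeR, adjusted p = 1.88e-07). Itga2, a collagen-binding integrin chain, fell 1.88-fold with overlapping ages (adjusted p = 0.00146). Ddr2, a collagen receptor kinase, was the other gene that fell (1.17-fold). Dag1, the laminin receptor dystroglycan, rose 1.13-fold, to 893 ± 24.8 CPM at day 8 against 789 ± 28.3 CPM at day 0. Itgb1, the beta chain shared by most matrix integrins, was not called (log2 fold change 0.07, adjusted p = 0.207).

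In the list of matrix turnover genes, 2 of 7 were called higher, 3 lower and 2 not, with a median log2 fold change of 0.10. Timp3, a matrix-bound inhibitor of metalloproteinases, rose 1.80-fold, to 1015 ± 76.0 CPM at day 8 against 565 ± 35.4 CPM at day 0 (edgeR, adjusted p = 6.10e-09), and the gelatinase gene Mmp2 rose 1.29-fold. Timp1, a soluble inhibitor, fell 2.13-fold at a low level, to 0.86 ± 0.243 CPM at day 8 against 1.84 ± 0.469 CPM at day 0. The membrane-bound metalloproteinase genes Mmp14 and Mmp15 fell 1.46-fold and 1.31-fold.

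Transcription factor genes of the glomerulus were called lower for 5 of 6 genes and higher for 0, with a median log2 fold change of -0.69. Wt1, a regulator of nephron progenitors and podocytes, fell 4.03-fold, to 42.4 ± 2.13 CPM at day 8 against 171 ± 11.4 CPM at day 0 (edgeR, adjusted p = 1.47e-13). Foxc2 fell 2.05-fold. Lmx1b, which in mice regulates Col4a3 and Col4a4 in podocytes, fell 1.88-fold, to 10.2 ± 1.04 CPM at day 8 against 19.2 ± 1.13 CPM at day 0. Foxc1 fell 1.18-fold. Tcf21, a factor of podocytes and stroma, was not called (log2 fold change -0.01, adjusted p = 0.841).

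Markers of podocytes, the source of the late glomerular chains, moved less than Col4a3 and Col4a4. Of 10 tested, 5 were called higher, 3 lower and 2 not, with a median log2 fold change of 0.16, and their summed TPM ranged from 728 to 860 at day 8 and from 542 to 685 at day 0. Clic5, a chloride channel family protein of podocyte foot processes, rose 1.52-fold. Podxl (log2 fold change 0.04, adjusted p = 0.469) and Cdkn1c (0.08, adjusted p = 0.404) were not called by edgeR. These 2 genes were the largest parts of the summed TPM. Cdkn1c had means of 367 TPM at day 8 and 300 TPM at day 0, and Podxl 140 and 124 TPM. On log2(TPM + 1) the median log2 fold change of all genes tested was itself 0.13. The lower genes were Ptpro, Plce1 and Kirrel, at 1.10-fold to 1.17-fold, each with overlapping ages. The log2 ratios of their mean TPM were -0.00, -0.02 and -0.10 in the same order. No marker of this list was at 0 in every library.

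Each chain was set beside these markers as its log2 TPM minus the mean log2 TPM of the 10 markers in the same library, as a description with no test. Col4a3 stood at 1.03 ± 0.04 at day 8 and -0.98 ± 0.12 at day 0, a difference of 2.02. The difference was 1.62 for Col4a4, 0.53 for Col4a5 and -0.99 for Lama1, and for these 4 chains the ages did not overlap. With Podxl as the only marker the differences were 2.20, 1.81, 0.72 and -0.80 in the same order of chains. The other 6 chains overlapped between the ages with all 10 markers, at differences of 0.24 for Col4a1, 0.20 for Col4a2, 0.16 for Col4a6, -0.21 for Lama5, -0.10 for Lamb1 and -0.21 for Lamb2.

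**Figure D5:**
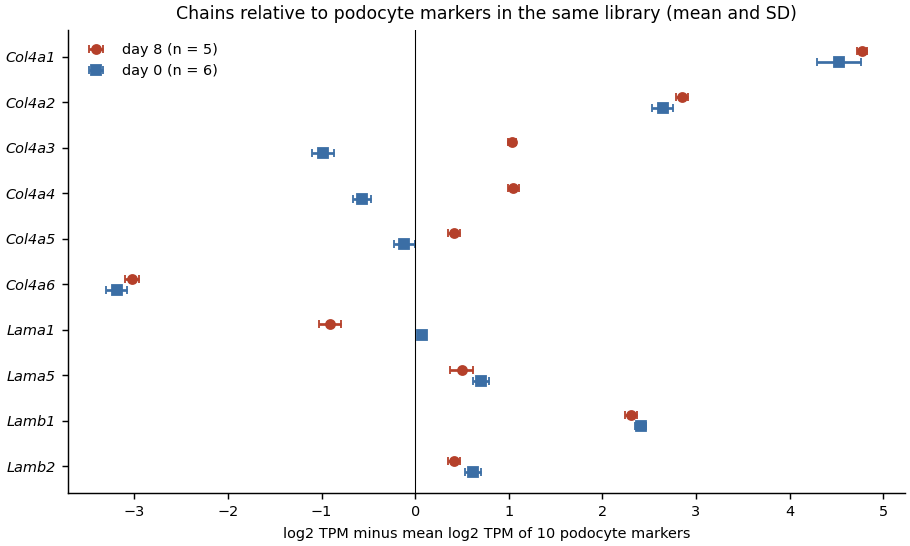
Log2 TPM of each chain minus the mean log2 TPM of 10 podocyte markers in the same library (x axis), as mean and SD at day 8 (red circles) and day 0 (blue squares). Col4a3 lies at 1.03 at day 8 and -0.98 at day 0, and Lama1 lies lower at day 8 than at day 0.

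RNA of other cell types differed between the ages as well, where 57.6% of all genes tested were called in either direction. All 10 endothelial markers were called higher (median log2 fold change 0.45, summed TPM 584 to 697 at day 8 and 354 to 452 at day 0), led by Plvap at 1.79-fold and Egfl7 at 1.51-fold. Of 11 stromal and smooth muscle markers, 7 were called higher and 2 lower (summed TPM 1725 to 1980 at day 8 and 1242 to 1497 at day 0), with Dcn and Lum rising 1.83-fold and 1.88-fold. The interstitial collagen genes Col1a2 and Col3a1 rose 1.32-fold and 1.34-fold, and Col1a1 rose 1.12-fold with overlapping ages. The 2 called lower were the smooth muscle genes Acta2 (1.28-fold) and Myh11 (1.30-fold). Proximal tubule markers were called higher for 5 of 6 (summed TPM 1933 to 2503 at day 8 and 576 to 924 at day 0), with Slc5a2 at 13.4-fold and Slc13a1 at 9.63-fold. Nephron progenitor markers were called lower for 5 of 6 (summed TPM 14.6 to 29.0 at day 8 and 90.9 to 114 at day 0), with Six2 at 141-fold and Eya1 at 43.1-fold. Of 7 ureteric bud and collecting duct markers, 3 were called higher and 3 lower. Ret, Wnt11 and Gata3 fell 17.7-fold, 2.97-fold and 1.97-fold, whereas Hsd11b2, Aqp3 and Tfcp2l1 rose 2.64-fold, 1.24-fold and 1.21-fold, and Aqp2 was not called. The part of these cell types in the changes of the 10 chains was not tested.

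Markers of tissues outside the kidney varied between libraries of an age. Liver markers summed to 153, 151 and 117 TPM in day 0 libraries 1 to 3, against 13.1 to 36.8 TPM in day 0 libraries 4 to 6, and to 8.02 to 62.1 TPM at day 8. Of 5 tested, 1 was called lower at day 8. Fat markers summed to 157, 130 and 123 TPM in day 8 libraries 3 to 5, against 90.4 and 72.6 TPM in day 8 libraries 1 and 2 and 74.8 to 103 TPM at day 0. These sums were largely Fabp4, which was not called, with means of 88.6 TPM at day 8 and 87.4 TPM at day 0. Of the 6 fat markers, 4 were tested and 3 called higher, and Lep was listed at 0 at day 0. Plin1 and Ucp1 had more CPM in every day 8 library, also in libraries 1 and 2, than in any day 0 library. Leaving out day 8 libraries 3 to 5 therefore does not remove the difference in these fat markers. Skeletal muscle markers summed to 1.11 to 3.15 TPM at day 8 and 2.74 to 17.3 TPM at day 0 (3 of 6 tested, all 3 lower), and adrenal markers to 0.81 to 1.30 TPM at day 8 and 1.02 to 2.15 TPM at day 0 (2 of 7 tested, neither called). Red cell markers summed to 37.1 to 90.6 TPM at day 8 and 39.8 to 110 TPM at day 0 (5 tested, 1 higher). Without day 0 libraries 1 to 3, the log2 fold change was 2.31 for Col4a3, 1.90 for Col4a4, 0.85 for Col4a5, 0.44 for Col4a6 and -0.79 for Lama1. Without day 8 libraries 3 to 5, it was 2.20, 1.77, 0.73, 0.35 and -0.71, and in both cases the 6 collagen IV chains were called higher and Lama1 lower. The part of these tissues in the results was not tested otherwise.

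The gene whose log2 CPM followed Col4a3 most closely over the 11 libraries was Col4a4 (Pearson r = 0.9986), its head-to-head neighbour, out of 11058 genes with a mean of at least 10 CPM. The next were Ankrd13c, F13b, Pipox and Htra1, all with r of at least 0.9966, whose log2 fold changes ran from 0.68 for Ankrd13c to 4.11 for F13b. Of the other members, Col4a5 ranked 245 with r = 0.98, while Col4a1 (0.95), Col4a2 (0.95) and Col4a6 (0.94) ranked 965, 1068 and 1151. The genes most like Lama1 were Mthfd1l (r = 0.994), Rbfox2, Gpr161, Prr5l and Lonrf2, with log2 fold changes of -1.13, -0.39, -0.77, -0.96 and -1.09. Lama1 and Col4a3 ran opposite to each other, with r = -0.97. The libraries form 2 separate sets by age, so these values are set largely by the difference between the ages and describe the libraries without a test.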

How the data were processed

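Total RNA was extracted with a column kit and sequenced as ribosome-depleted stranded libraries, per the labels' protocols. The authors deposited estimated counts per gene, which need not be whole, and TPM values, scaled by them for transcript length and library total. Per the submitters' processing notes, FastQC, fastp, DRAGEN, Picard and the build mm10 were used, while the settings, annotation and use of strand are not given in the sources used here. Library totals were 18222170 to 24428652 counts, and between 12.1% and 13.1% of values per library were not whole (any remainder, no tolerance) and were rounded before testing. Each of the 25 same-age pairs of libraries differed beyond sampling noise. TPM sums were 995005 to 998182, but the median CPM per TPM over genes ranged from 1.75 to 2.33 between libraries, so TPM and TMM-scaled CPM differ in scale.

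Genes were tested in R 4.3.3 with edgeR 4.0.16 (TMM, filterByExpr, robust quasi-likelihood fit, age as the only term) over all 18763 genes that passed the filter. Simulated counts for day 8 against day 0 held 18552 genes, of which 200 were changed, 50 at each size of change. In them the test recovered 62% of genes changed 1.5-fold and 94% of those changed 2-fold. It made 182 calls, 7 on genes left unchanged. Far fewer genes changed there than the 57.6% called between the ages, so these recovery rates need not carry over to the comparison itself. Chain ratios used an exact permutation test (scipy 1.17.1). Errors are SD unless SE is written. Alternatives were RLE and library-size normalisation, other count filters, DESeq2 1.42.0, limma-voom and limma 3.58.1 on log2(TPM + 1) or log2(TPM + 0.1), a threshold of 0.01, Xist as a covariate because the labels give no sex, and leaving out libraries.

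The members, the 17 other gene lists and the tests were chosen with earlier results of these data known. The text draws its genes from the members and, from each other list, the 2 called genes of greatest log2 fold change in size and the 2 of highest mean TPM, plus the 5 genes most correlated with Col4a3 and with Lama1. Some genes that this rule or a count would name are not reported here. Gene coordinates are from GENCODE M21. Lengths are those of the longest coding transcript.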

Additional observations from a re-analysis of the deposited data

Results flagged for a closer look

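In 38 sets of libraries checked for a value far from the others of its age, 2 stood out. Chance flags about 1 set in 20, so 2 of 38 is about the number that chance gives. Col4a4 in day 0 library 2 had 208 CPM, with the other day 0 libraries between 178 and 187 CPM. Its gap to the nearest library was 0.695 of the whole range, beside a limit of 0.625 for 6 libraries. The Col4a6/Col4a2 ratio by TPM in day 8 library 5 was 0.0195, with the other day 8 libraries between 0.0162 and 0.0169 and a gap of 0.780 beside a limit of 0.71 for 5 libraries. Without day 0 library 2, Col4a4 was still called higher. Without day 8 library 5, the log2 difference of Col4a6/Col4a2 was -0.088 (exact permutation, adjusted p = 0.0536), against -0.040 with all libraries (adjusted p = 0.515), and it was not called in either case.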

How the results depend on the processing

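All 6 collagen IV rises and the fall of Lama1 kept their direction and their call in 23 alternatives, with log2 fold changes of 2.17 to 2.37 for Col4a3, 1.77 to 1.98 for Col4a4, 0.69 to 0.89 for Col4a5, 0.31 to 0.61 for Col4a1, 0.34 to 0.57 for Col4a2, 0.31 to 0.51 for Col4a6 and -0.83 to -0.60 for Lama1. Of the chains not called, Lamb1 was called with limma on log2(TPM + 1) and log2(TPM + 0.1) (0.26 in each, adjusted p = 0.026 in each), which makes 7 chains higher. With these TPM values the median of all genes moved to 0.13 and 0.15, and 5441 and 5388 genes were called higher and 2477 and 2474 lower, against 5162 higher and 5646 lower with TMM. With library size only, 4260 were called higher and 6530 lower. For the ratios, Lamb2/Lamb1 was not called with TMM-scaled CPM (log2 difference -0.022, exact permutation, adjusted p = 0.602), and Col4a6/Col4a2 was called with log2(TPM + 1) (-0.14, adjusted p = 0.0292, exact permutation). The other 7 ratios kept their side of the threshold in 13 alternatives. Relative to Podxl alone, the difference of Lamb1 was 0.08, of the opposite sign to its difference of -0.10 relative to all 10 podocyte markers. The cause of these shifts was not tested. No paired analysis was possible because the labels give no replicate numbers that the ages share. With 5 and 6 libraries the exact test cannot give a p below 0.00433, and Col4a6, at about 20 to 26 CPM, rests on the fewest counts.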
